A study of Mus musculus with 22 samples.

Results

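The PPAR-alpha target and fatty acid oxidation genes were measured here as 37 named genes of the 27896 gene names on a one-colour mouse expression array. The 37 were taken by gene name, and each was read from its brightest probe: 35 were found under the name in the array file, and Hadh and Eci1 were found through their accessions under the older names Hadhsc and Dci. By role they were 6 transcriptional regulators, 6 genes of fatty acid activation and entry into mitochondria, 11 enzymes of mitochondrial beta-oxidation, 3 electron transfer genes, 3 peroxisomal genes, 3 acyl-CoA thioesterases, 1 ketone body enzyme and 4 other targets. Of the 37, 35 were well above background on every array, and Ppard and Acot2 were dim in the ileum.

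The 6 groups of male C57BL/6 mice on chow were compared, in 22 arrays, 1 per sample. In the colon there were 4 SIRT1 iKO and 3 Flox samples from mice of 24 months. In the ileum there were 4 SIRT1 iKO and 3 Flox samples of 24 months, and 4 SIRT1 iKO and 4 Flox samples from young mice of 6 to 8 weeks. Flox is the control genotype of the labels, which name SIRT1 for the iKO mice; what iKO stands for, the promoter used and the part of Sirt1 removed are not given in the sources used here. The labels number the replicates without tying a number to a mouse, in 1 tissue or across both, so the p-values measure the spread between these samples, which may be technical.

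PPAR-alpha is a nuclear receptor that pairs with RXR-alpha, binds fatty acids and drives genes for their oxidation; PGC-1-alpha and PGC-1-beta are its coactivators. Fatty acids are joined to coenzyme A, carried into mitochondria by the carnitine shuttle and shortened by dehydrogenases, hydratases and thiolases, while peroxisomes shorten the very long chains. The small intestine absorbs dietary fat and responds to it through PPAR receptors, and the colon epithelium burns bacterial butyrate. SIRT1 is an NAD-dependent deacetylase known in mouse liver to act on PPAR-alpha and PGC-1-alpha.

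The probes that carry the age and tissue results are given by the first 30 of their 60 bases, in lower case, as the array files list them. Both Bdh1 probes and both Acot4 probes are shown because the probes of each gene did not give the same call.
Pdk4 probe: tatgaacccatgggagactttaaactcttg
Bdh1 brighter probe: tgggtggccctaaacctcagggccaatatg
Bdh1 dimmer probe: tggtcacctcttctttgtattgggaacttc
Acot4 brighter probe: tgctggatgacatgaaattcatgtttaggg
Acot4 dimmer probe: cttctgggtctttccctaggagctgatgtc
Acsl5 probe: gcagccaagatcggggtaaagggatcattt
Vnn1 probe: ctgtttgtcaacagtggactcgggtgtaag
Angptl4 probe: atggtgctgttgtaggtgctgtggatgcac
Pparg probe: gcaggaaagtcccacccgctgacaacgtgt
In build mm7, the build of the array files, the Pdk4 probe lies at chr6:5436327-5436386 on the minus strand. The Bdh1 probes lie at chr16:31131721-31131780 and chr16:31132538-31132597 on the plus strand, the brighter one first. The Acot4 probes lie at chr12:82039908-82039967 and chr12:82039249-82039308 on the plus strand, the brighter one first. The Acsl5 probe covers chr19:55208487-55209075 on the plus strand, a span of 589 bases for 60 bases of probe. The Vnn1 probe lies at chr10:23655645-23655704 and the Pparg probe at chr6:115515909-115515968, both on the plus strand, and the Angptl4 probe at chr17:31849774-31849833 on the minus strand. The files give no exon or UTR annotation for these positions.

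Levels below are log2 signals relative to the 75th percentile of the same array. Signal differs between probes, so levels are compared between samples and not between genes. Sirt1 itself read 0.41, 0.59, 0.65 and 0.34 in SIRT1 iKO colon, against 0.79, 0.79 and 0.76 in Flox colon. In 24-month ileum it read 0.28, 0.32, 0.30 and 0.39 in SIRT1 iKO, against 0.59, 1.09 and 0.78 in Flox. In young ileum it read 0.64, 0.72, 0.70 and 0.75 in SIRT1 iKO, against 0.96, 0.60, 1.19 and 0.92 in Flox. The groups did not overlap at 24 months in either tissue and overlapped in the young, and the differences of -0.28, -0.50 and -0.21 did not pass the test over all genes (limma adjusted p = 0.622, 0.178 and 0.999). Where the probe lies relative to the altered part of Sirt1 is not given in the sources used here.

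The tissue labels were checked against marker lists. The bile acid binding protein Fabp6, an ileum marker, read from -4.89 to -2.55 in the 7 colon arrays and from 3.20 to 3.93 in the 15 ileum arrays. The colon marker Car1, a carbonic anhydrase, read from 8.17 to 8.74 in the colon arrays. Car1 also read 7.79 in 24-month SIRT1 iKO ileum replicate 2 and 8.18 in 24-month Flox ileum replicate 1, against -3.00 to 2.63 in the other 13 ileum arrays. The colon water channel Aqp8 read 5.57 and 6.55 on those arrays, against -5.09 to -2.08 on the other ileum arrays. Ang4 and Saa1, also listed as colon markers, overlapped between the tissues. Slc26a3, the remaining listed colon marker, read 2.85 and 3.34 on the same arrays, short of the colon level. It read from 3.72 to 5.28 in the colon arrays and from 1.59 to 2.61 on the other ileum arrays. Both arrays kept an ileum level of Fabp6, at 3.60 and 3.20, so the calls that changed when both were left out are given both ways. The ileum arrays sat on 4 slides and the colon arrays on 4 others, so tissue and array run cannot be told apart. On the colon arrays 70.45% to 79.66% of spots were well above background, against 49.78% to 61.53% on the ileum arrays. The 75th percentile of signal was 1425.2 to 1750.6 on the colon arrays and 917.6 to 1230.8 on the ileum arrays. The part of this in the tissue differences was not tested. Genotype and position on the slide cannot be told apart in the young ileum and the colon, nor can age and position in the ileum.

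**Figure D1:**
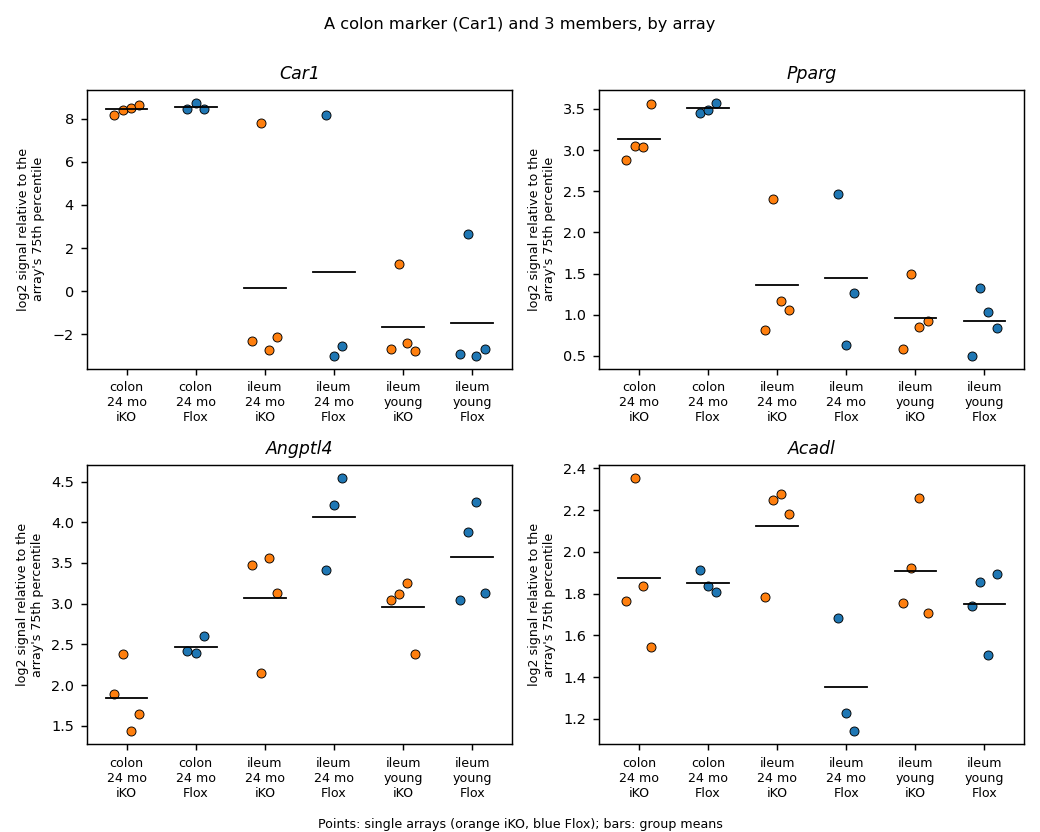
Log2 signal relative to the 75th percentile of the array (vertical axes) for the colon marker Car1 and the members Pparg, Angptl4 and Acadl, with each point 1 array, orange for SIRT1 iKO and blue for Flox, and bars for group means. In the 24-month ileum 1 SIRT1 iKO and 1 Flox array reached Car1 levels of 7.79 and 8.18, close to the colon arrays, and the same arrays had Pparg levels of 2.41 and 2.46.

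The first question was whether the module differed between SIRT1 iKO and Flox samples. No member passed the test in any of the 3 genotype comparisons, at a limma adjusted p under 0.05 over all genes tested. Few genes of any kind did: 7 of 15570 genes (0.045%) in young ileum, 26 of 15570 (0.167%) in 24-month ileum and 22 of 19721 (0.112%) in 24-month colon. Of 37 members, 0 had an unadjusted p under 0.05 in young ileum and 5 in 24-month ileum (1 higher and 4 lower in SIRT1 iKO). In colon 6 did, all lower in SIRT1 iKO. Among all genes tested, 645 of 15570, 1860 of 15570 and 1423 of 19721 did, in the same order. Whether members passed this threshold more often than other genes was not tested. In young ileum the 95% intervals of 35 of 37 members lay within 1 log2 unit of 0, the exceptions being Acot2 and Angptl4. The interval lay within that bound for 28 of 37 members in 24-month ileum and for 31 of 37 in colon.

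The members' differences were small and mostly below 0. The median over the 37 members was -0.10 in young ileum, -0.14 in 24-month ileum and -0.13 in colon, against medians over all genes tested of -0.01, 0.02 and -0.01. The difference was below 0 for 27, 27 and 31 of the 37. The 3 comparisons share no arrays, and 20 members were below 0 in all 3 (54.1%), against 3259 of the 15489 genes tested in all of them (21%). By role, the median difference in young ileum, 24-month ileum and colon was -0.10, -0.17 and -0.08 for mitochondrial beta-oxidation, -0.21, -0.35 and -0.75 for the other targets, and -0.17, -0.43 and -0.43 for the thioesterases. In the same order it was -0.14, -0.12 and -0.15 for the regulators, -0.07, -0.18 and -0.05 for activation and mitochondrial entry, and -0.06, -0.06 and -0.08 for the peroxisomal genes. Electron transfer stood at -0.04, 0.01 and -0.13, and the ketone body enzyme Bdh1 at 0.05, 0.17 and -0.03. The 20 include Ppara, Ppard, Ppargc1a and Rxra among the regulators, and Angptl4, Pdk4 and Ucp2 among the other targets. Members above 0 in all 3 numbered 2 (5.4%), against 20% of all genes. The side of 0 was not tested for the list. Some cell markers moved with genotype: the 4 B and plasma cell markers summed to 5.64 to 6.33 in SIRT1 iKO colon, against 4.65 to 5.34 in Flox colon. The macrophage marker Adgre1 ran from 0.30 to 0.85 in 24-month SIRT1 iKO ileum, against 1.13 to 1.41 in 24-month Flox ileum. Neither pair overlapped. Csf1r, Cd68 and Cd163, the other macrophage markers listed, did overlap between genotypes in 24-month ileum. The 4 macrophage markers there summed to 1.717 to 2.243 in SIRT1 iKO, against 2.228 to 2.493 in Flox. Among the single B and plasma cell markers, only Jchain did not overlap in colon. The part of these cells in the members' differences was not tested. Within slides that held both genotypes, the median over the members was 0.08, -0.05, -0.38 and -0.08 in young ileum, -0.14 on the 1 such slide of 24-month ileum, and -0.16, -0.28 and 0.12 in colon. The SIRT1 iKO array of that 24-month ileum slide was the one with colon-level Car1.

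**Figure D2:**
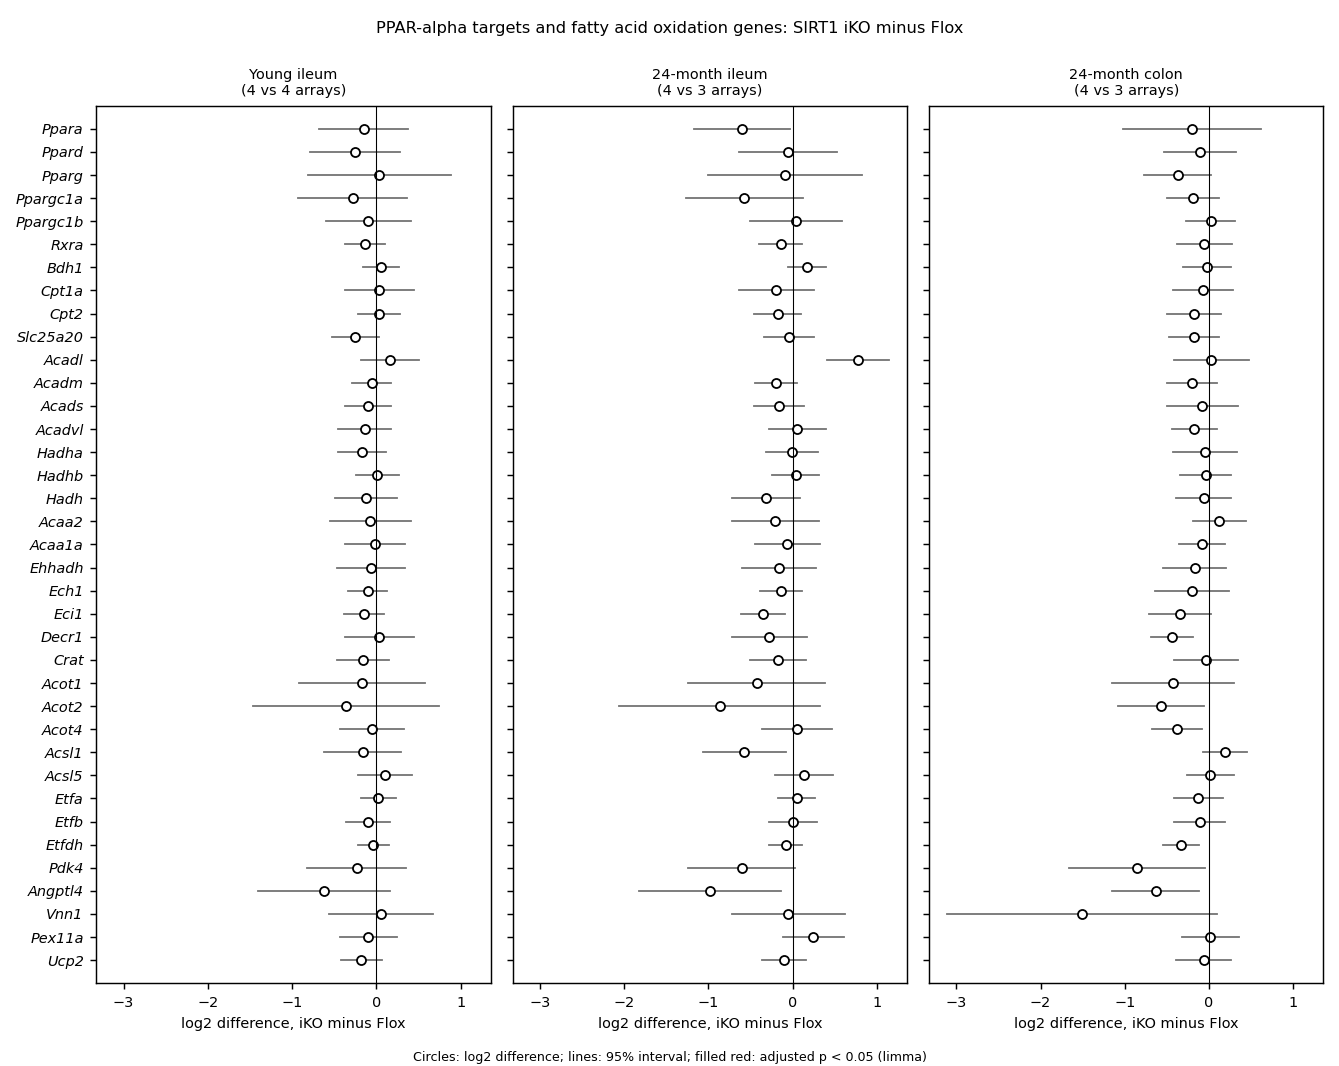
Log2 difference of SIRT1 iKO minus Flox (horizontal axes) for the 37 members in young ileum, 24-month ileum and 24-month colon, with circles for the differences and lines for 95% intervals. No circle is filled, since no member passed at an adjusted p under 0.05, and 27, 27 and 31 of the 37 circles lie below 0.

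Angptl4, a secreted inhibitor of lipoprotein lipase and a classic PPAR target, had the largest negative difference in both ileum comparisons. In 24-month ileum it read 3.48, 2.14, 3.56 and 3.13 in SIRT1 iKO, against 3.42, 4.21 and 4.54 in Flox, a difference of -0.98 ± 0.39 (SE, limma adjusted p = 0.353). In young ileum it read 3.05, 3.12, 3.26 and 2.38 in SIRT1 iKO, against 3.04, 3.87, 4.25 and 3.13 in Flox, a difference of -0.62 ± 0.36 (adjusted p = 0.999). The groups overlapped at both ages, with the lowest single array a SIRT1 iKO one each time. In colon it read 1.89, 2.38, 1.43 and 1.65 in SIRT1 iKO, against 2.41, 2.40 and 2.61 in Flox, without overlap, a difference of -0.64 ± 0.22 (adjusted p = 0.558). Groups without overlap were found for 0 members in young ileum, 5 in 24-month ileum and 4 in colon, against 2.2%, 14.1% and 8.22% of all genes. Fat tissue also expresses Angptl4, and the summed level of 8 adipose markers ran from 4.92 to 5.44 in 24-month SIRT1 iKO ileum and from 5.42 to 7.33 in 24-month Flox ileum. It ran from 3.20 to 7.26 in young SIRT1 iKO ileum and from 4.29 to 6.89 in young Flox ileum, and from 3.59 to 5.95 in SIRT1 iKO colon and from 4.67 to 5.17 in Flox colon. All 8 markers were well above background on every Flox colon array, 7 on every SIRT1 iKO colon array, 24-month ileum array and young Flox ileum array, and 3 on every young SIRT1 iKO ileum array. Lep was not above background on any SIRT1 iKO ileum array, and the part of fat in the result was not tested. In bulk tissue, fewer cells of a type and less RNA per cell cannot be told apart.

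Acadl, the long-chain acyl-CoA dehydrogenase that opens a turn of beta-oxidation, was the member with the smallest p in 24-month ileum, and it ran the other way. It read 1.79, 2.25, 2.28 and 2.18 in SIRT1 iKO, against 1.68, 1.23 and 1.14 in Flox, so that all SIRT1 iKO arrays were above all Flox arrays. The difference was 0.77 ± 0.17 (SE), and the limma adjusted p was 0.123. It was 0.90 ± 0.19 without both arrays with colon-level Car1 (adjusted p = 0.108). In young ileum the Acadl difference was 0.16, and its levels ran from 1.71 to 2.26 in SIRT1 iKO and from 1.51 to 1.90 in Flox. In colon it was 0.02, with levels from 1.54 to 2.35 in SIRT1 iKO and from 1.81 to 1.91 in Flox.

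Eci1, which moves double bonds so that unsaturated fatty acids can be oxidised, read 3.61, 3.54, 3.40 and 3.43 in 24-month SIRT1 iKO ileum, against 3.77, 3.89 and 3.89 in Flox. The groups did not overlap, and the difference was -0.35 ± 0.12 (SE, limma adjusted p = 0.277). Acsl1, a long-chain acyl-CoA synthetase also abundant in fat, read 1.98, 1.75, 1.90 and 2.02 in 24-month SIRT1 iKO ileum, against 2.54, 2.69 and 2.23 in Flox. That difference was -0.57 ± 0.23 (adjusted p = 0.353), again without overlap. The receptor Ppara itself read 0.53, 0.15, 0.18 and -0.16 in 24-month SIRT1 iKO ileum, against 0.13, 1.26 and 0.95 in Flox, a difference of -0.60 ± 0.26 (adjusted p = 0.389). The lowest Flox array, the 1 inside the SIRT1 iKO range, was the one with colon-level Car1. Without both such arrays the groups did not overlap, and the difference was -0.92 ± 0.26 (limma adjusted p = 0.219). When arrays were weighted by quality, 6 members passed in 24-month ileum: Acadl higher, and Angptl4, Cpt2, Eci1, Pdk4 and Ppara lower. Under that weighting 2827 genes passed in all, against 26 without it.

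In colon the smallest p belonged to Decr1, Etfdh and Acot4, and none of them passed. Decr1, the mitochondrial dienoyl-CoA reductase for unsaturated fatty acids, read -2.43, -2.31, -2.54 and -2.37 in SIRT1 iKO, against -1.99, -2.08 and -1.84 in Flox, a difference of -0.44 ± 0.10 (SE, limma adjusted p = 0.328). Etfdh, which passes electrons from beta-oxidation to ubiquinone, read 3.70, 3.69, 3.71 and 3.82 in SIRT1 iKO, against 3.99, 4.06 and 4.14 in Flox, a difference of -0.33 ± 0.09 (adjusted p = 0.414). Acot4, a peroxisomal thioesterase, read -1.56, -1.32, -1.29 and -1.23 in SIRT1 iKO, against -1.02, -0.79 and -1.09 in Flox, a difference of -0.39 ± 0.13 (adjusted p = 0.522). For each of these genes all SIRT1 iKO colon arrays lay below all Flox colon arrays. The 6 pancreas markers summed to -1.025 to 4.265 in SIRT1 iKO colon, against -1.377 to -0.372 in Flox colon, so the groups overlapped. The SIRT1 iKO colon arrays were uneven: Cpa1 averaged -2.629 with a highest array of 3.559, and Prss2 averaged -3.336 with a highest of 1.377. The part of pancreas tissue in the colon differences was not tested. The other members with an unadjusted p under 0.05 in colon, all lower in SIRT1 iKO, were Angptl4, Acot2 (-0.57 ± 0.22) and Pdk4 (-0.86 ± 0.34). Pdk4 read 0.04, -0.53, -0.28 and -0.03 in SIRT1 iKO colon, against -0.16, 1.35 and 0.78 in Flox colon, with overlapping groups. The widest uncertainty was that of Vnn1, a pantetheinase of the epithelial surface, at -3.06, -1.18, -1.73 and -0.39 in SIRT1 iKO colon, against -1.08, 0.01 and 0.81 in Flox colon. Its difference of -1.51 had a 95% interval from -3.11 to 0.10.

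In young ileum the smallest p values after that of Slc25a20 belonged to Angptl4 and Ucp2. Slc25a20, the carnitine-acylcarnitine translocase of the inner mitochondrial membrane, read 2.03, 1.76, 1.64 and 1.65 in SIRT1 iKO, against 2.11, 2.17, 1.93 and 1.87 in Flox, a difference of -0.25 ± 0.13 (SE, limma adjusted p = 0.999). Ucp2, a mitochondrial carrier of the uncoupling protein family, read 1.42, 1.25, 1.46 and 1.42 in SIRT1 iKO, against 1.37, 1.58, 1.82 and 1.48 in Flox, a difference of -0.18 ± 0.11 (adjusted p = 0.999). Both pairs of groups overlapped. On the 4 slides, each with 1 array of each genotype, the difference was below 0 on all 4 for Slc25a20 (-0.35 to -0.14) and for Ucp2 (-0.40 to -0.03). Of 90 other genes of the pathway, listed beside the members, 80 were tested in ileum and 85 in colon, and 0 passed in each genotype comparison. At an unadjusted p under 0.05 they numbered 2 of 80 in young ileum, 9 of 80 in 24-month ileum and 4 of 85 in colon. Among all genes the counts were 645 of 15570, 1860 of 15570 and 1423 of 19721.

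The second question was whether the module differed between 24-month and young ileum. In SIRT1 iKO ileum 1 member rose and 3 fell at 24 months, against 10.7% of all genes tested that passed, 5.17% higher and 5.57% lower. In Flox ileum 1 member rose and 3 fell, against 8.54% of all genes that passed, 3.18% higher and 5.36% lower. Of 37 members, 4 passed in each genotype, a share near that of all genes. They were the same 4 in both: Pdk4 rose, and Bdh1, Acot4 and Acsl5 fell. The 2 age comparisons share no arrays, though they share 1 estimate of the spread.

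Pdk4 encodes the pyruvate dehydrogenase kinase that slows glucose oxidation while fat is used. It read -0.64, -1.36, -0.28 and -1.36 in 24-month SIRT1 iKO ileum, against -2.07, -1.34, -2.22 and -2.37 in young SIRT1 iKO ileum. It read 0.07, -0.71 and -0.28 in 24-month Flox ileum, against -1.96, -1.75, -1.51 and -1.84 in young Flox ileum. The Flox groups did not overlap, and in SIRT1 iKO 1 young array reached the lowest 24-month level. Pdk4 was 2.13-fold higher at 24 months in SIRT1 iKO (log2 1.09 ± 0.27 SE, limma adjusted p = 0.0257) and 2.75-fold higher in Flox (log2 1.46 ± 0.30, adjusted p = 0.0124). Within slides that held both ages, the differences ran from 0.71 to 1.22 in SIRT1 iKO (3 slides) and from 1.04 to 1.41 in Flox (2 slides).

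Bdh1 encodes the mitochondrial enzyme that interconverts the ketone bodies acetoacetate and beta-hydroxybutyrate. Its brighter probe read 3.89, 4.19, 4.07 and 3.84 in 24-month SIRT1 iKO ileum, against 4.84, 4.94, 4.71 and 4.68 in young SIRT1 iKO ileum. It read 3.86, 3.66 and 3.97 in 24-month Flox ileum, against 4.78, 4.73, 4.77 and 4.69 in young Flox ileum. Every 24-month array lay below every young array. The probe was 1.74-fold lower in SIRT1 iKO (log2 -0.80 ± 0.10 SE, limma adjusted p = 0.000329) and 1.88-fold lower in Flox (log2 -0.91 ± 0.11, adjusted p = 0.000236). Within slides the differences ran from -0.88 to -0.66 in SIRT1 iKO and from -1.06 to -0.86 in Flox. The dimmer Bdh1 probe, listed under another accession, did not fall: it averaged 0.19 ± 0.22 at 24 months and 0.05 ± 0.06 in young SIRT1 iKO ileum (SD, n = 4 each). In Flox ileum it averaged 0.24 ± 0.18 (n = 3) at 24 months and 0.06 ± 0.08 (n = 4) in the young. Its differences were 0.14 and 0.18, with limma adjusted p = 0.442 and 0.364.

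Acot4 hydrolyses acyl-CoA in peroxisomes, among them succinyl-CoA. Its brighter probe read 0.28, -0.07, -0.02 and 0.07 in 24-month SIRT1 iKO ileum, against 0.68, 0.59, 0.91 and 0.94 in young SIRT1 iKO ileum. It read -0.25, 0.58 and -0.27 in 24-month Flox ileum, against 0.73, 0.60, 1.08 and 0.93 in young Flox ileum. In both genotypes the ages did not overlap, though 1 Flox array of 24 months lay just below the lowest young one. Acot4 was 1.64-fold lower in SIRT1 iKO (log2 -0.71 ± 0.18 SE, limma adjusted p = 0.0249) and 1.75-fold lower in Flox (log2 -0.81 ± 0.19, adjusted p = 0.0235). Within slides the differences ran from -0.74 to -0.62 in SIRT1 iKO and from -1.34 to -0.02 in Flox. The dimmer Acot4 probe gave -0.42 and -0.62, which did not pass (limma adjusted p = 0.184 and 0.0902).

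Acsl5 is a long-chain acyl-CoA synthetase abundant in the small intestine. It read 4.97, 4.60, 4.63 and 4.80 in 24-month SIRT1 iKO ileum, against 5.34, 5.24, 5.78 and 5.38 in young SIRT1 iKO ileum. It read 4.25, 4.74 and 4.85 in 24-month Flox ileum, against 5.47, 5.15, 5.35 and 5.37 in young Flox ileum. No 24-month array reached the lowest young array of its genotype. Acsl5 was 1.61-fold lower in SIRT1 iKO (log2 -0.69 ± 0.15 SE, limma adjusted p = 0.0142) and 1.65-fold lower in Flox (log2 -0.72 ± 0.16, adjusted p = 0.0191). Within slides the differences ran from -0.90 to -0.60 in SIRT1 iKO and from -0.79 to -0.41 in Flox.

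**Figure D3:**
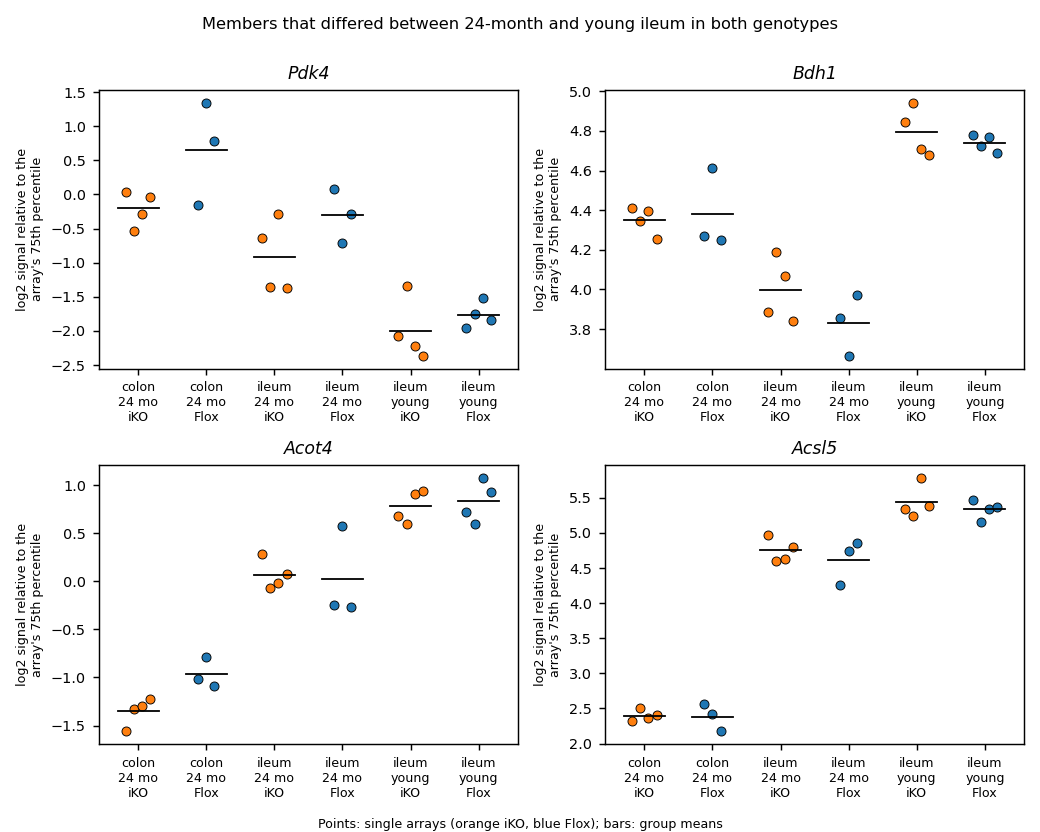
Log2 signal relative to the 75th percentile of the array (vertical axes) for Pdk4, Bdh1 (brighter probe), Acot4 (brighter probe) and Acsl5, with each point 1 array, orange for SIRT1 iKO and blue for Flox, and bars for group means. In the ileum Pdk4 was higher and the other genes were lower at 24 months in both genotypes, and Acsl5 was lower still in colon, with group means of 2.40 and 2.38.

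The call on Bdh1 did not rest on the arrays with colon-level Car1, and the others did in part. Without both arrays, Bdh1 differed by -0.86 in SIRT1 iKO and by -0.92 in Flox (limma adjusted p = 0.00084 and 0.00144). In SIRT1 iKO, Acsl5 and Pdk4 still passed (adjusted p = 0.0237 and 0.0272) and Acot4 did not (-0.67, adjusted p = 0.0575). In Flox, Pdk4 at 1.27, Acsl5 at -0.54 and Acot4 at -0.68 did not pass (adjusted p = 0.0507, 0.0781 and 0.102). All genes that passed in Flox then numbered 561, against 1330 with both arrays. The 5 colon markers summed to 7.27 to 8.87 in 24-month SIRT1 iKO ileum and 7.33 to 8.76 in young SIRT1 iKO ileum. They summed to 5.93 to 9.22 in 24-month Flox ileum and 6.66 to 8.42 in young Flox ileum. At least 4 of the 5 were well above background on every array of each group. These sums include Ang4 and Saa1, which overlapped between the tissues. Ang4 averaged 2.73 in Flox colon, below 5.56 in 24-month and 6.61 in young Flox ileum. In SIRT1 iKO colon it averaged 6.103, between 5.875 in 24-month and 6.682 in young SIRT1 iKO ileum. The sums therefore cannot show how much colon tissue an ileum array held. The 8 epithelial markers summed to 10.5 to 10.6 in all 24-month ileum arrays, against 10.6 to 10.97 in the young. The 4 ileum markers summed to 8.18 to 8.50 in 24-month and 8.71 to 9.08 in young SIRT1 iKO ileum, and to 7.86 to 8.48 in 24-month and 8.60 to 9.06 in young Flox ileum, without overlap between ages. The 4 macrophage markers summed to 1.72 to 2.49 at 24 months, against 1.28 to 1.93 in the young. The part of tissue makeup in the age differences was not tested.

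The rest of the module gave no call with age. All 11 enzymes of mitochondrial beta-oxidation stayed short of the threshold in both genotypes, with medians of -0.05 in SIRT1 iKO and -0.02 in Flox. None of the 6 regulators passed: Ppargc1a, the coactivator PGC-1-alpha, averaged 0.48 ± 0.46 at 24 months and 1.12 ± 0.09 in young SIRT1 iKO ileum (SD, n = 4 each; limma adjusted p = 0.177). In Flox ileum Ppargc1a averaged 1.05 ± 0.70 (n = 3) at 24 months and 1.41 ± 0.47 (n = 4) in the young. The median over all 37 members was -0.05 in SIRT1 iKO and -0.01 in Flox, against -0.02 for all genes in each. Of the 80 other pathway genes tested, 2 rose and 5 fell in SIRT1 iKO, and 2 rose and 6 fell in Flox. Oxct1, which activates ketone bodies for oxidation, fell in both (-0.32 and -0.47), as did the thioesterase Acot9 (-0.60 and -0.70) and the peroxisome assembly gene Pex16 (-0.31 and -0.46). Acad10 (0.56 and 0.62) and Pcca, a subunit of propionyl-CoA carboxylase (0.45 and 0.62), rose in both.

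**Figure D4:**
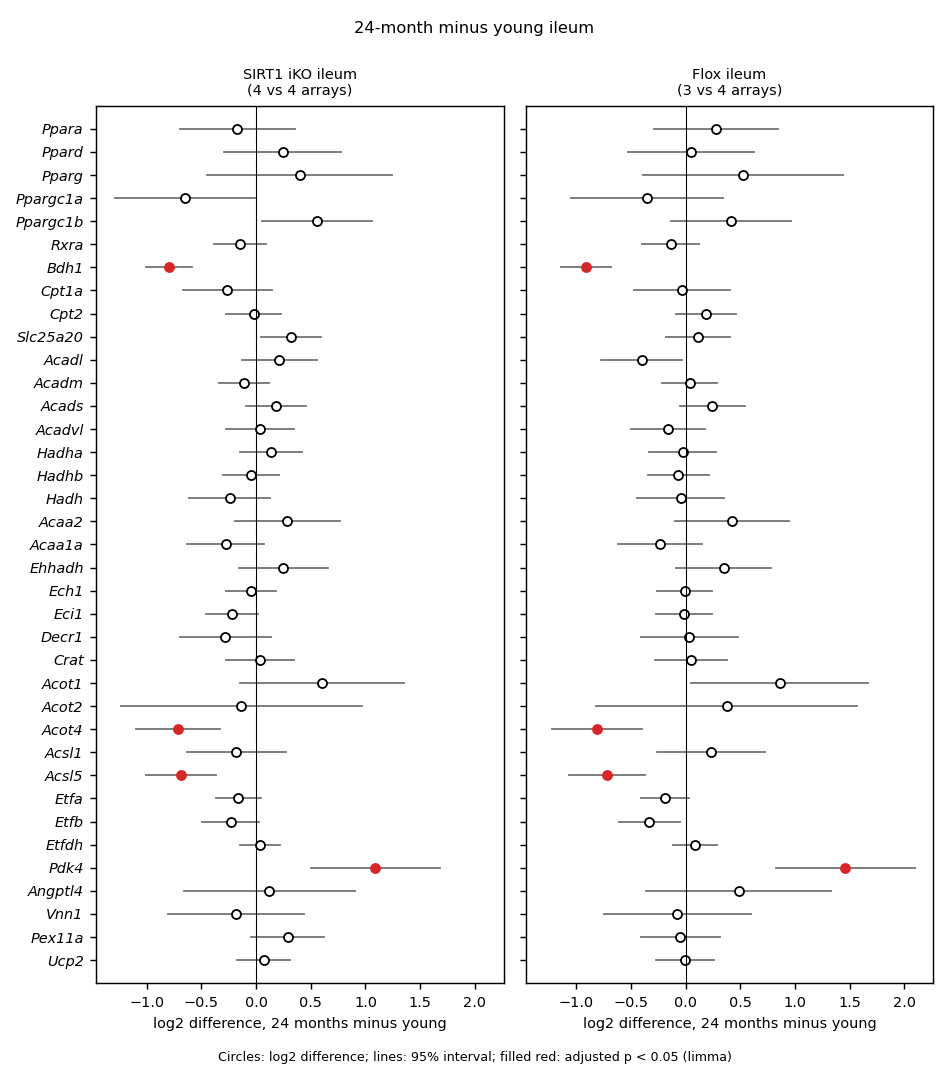
Log2 difference of 24-month minus young ileum (horizontal axes) for the 37 members in SIRT1 iKO and in Flox, with circles for the differences, lines for 95% intervals and filled red circles for an adjusted p under 0.05. The same 4 genes are filled in both panels, with Pdk4 to the right of 0 and Bdh1, Acot4 and Acsl5 to the left.

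Whether the age differences differed between genotypes was tested as an interaction. The interaction of genotype and age called 0 members and 0 of all 15570 genes (0%) with limma. At an unadjusted p under 0.05 it held 1 of 37 members and 394 of 15570 genes. With normexp background correction 1 gene passed. The member was Acadl, with an interaction of 0.61 and a 95% interval from 0.11 to 1.12, which leaves out 0 before adjustment over all genes. Pex11a, a factor of peroxisome division, followed at 0.34, with an interval from -0.15 to 0.83, and Acsl1 at -0.41, with one from -1.08 to 0.26. Pex11a read 3.94 ± 0.22 in 24-month and 3.64 ± 0.32 in young SIRT1 iKO ileum (SD, n = 4 each), and 3.69 ± 0.13 (n = 3) in 24-month and 3.74 ± 0.15 (n = 4) in young Flox ileum.

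The third question was how the module differed between colon and ileum at 24 months. In SIRT1 iKO 9 members were higher and 10 lower in colon, against 43.6% of all genes that passed, 24.3% higher and 19.4% lower. In Flox 8 were higher and 8 lower, against 32.9% of all genes, 19.2% higher and 13.7% lower. The 7 members higher in both genotypes were Pparg, Ppargc1b, Cpt1a, Slc25a20, Acads, Hadhb and Bdh1. The 7 lower in both were Vnn1, Acsl5, Acot4, Angptl4, Rxra, Cpt2 and Decr1. The interaction of genotype and tissue called 0 members with limma, and 7 of 19772 genes (0.0354%). At an unadjusted p under 0.05 it held 2 of 37 members and 1184 of 19772 genes.

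Among the regulators, Pparg, the PPAR of fat cells and of colon epithelium, read 2.88, 3.05, 3.04 and 3.56 in SIRT1 iKO colon, against 0.81, 2.41, 1.17 and 1.05 in SIRT1 iKO ileum. It read 3.44, 3.49 and 3.58 in Flox colon, against 2.46, 0.63 and 1.26 in Flox ileum. The tissues did not overlap, and the highest ileum level of each genotype was on the array with colon-level Car1. Pparg was 3.41-fold higher in SIRT1 iKO colon (log2 1.77 ± 0.39 SE, limma adjusted p = 0.00321) and 4.15-fold higher in Flox colon (log2 2.05 ± 0.45, adjusted p = 0.00466). Without both arrays the differences were 2.12 and 2.56. Ppargc1b, the coactivator PGC-1-beta, was also higher in colon (0.98 and 1.01), and the partner receptor Rxra was lower (-0.63 and -0.72). Ppargc1a was higher in SIRT1 iKO colon (1.25, adjusted p = 0.00333), and in Flox its difference of 0.87 did not pass (adjusted p = 0.0552). Ppara averaged 0.10 ± 0.53 in SIRT1 iKO colon and 0.18 ± 0.28 in SIRT1 iKO ileum (SD, n = 4 each), and 0.31 ± 0.52 in Flox colon and 0.78 ± 0.59 in Flox ileum (n = 3 each), and it did not pass.

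The lowest differences in colon were those of Vnn1, Acsl5, Angptl4 and Acot4. Acsl5 read 2.32, 2.50, 2.37 and 2.41 in SIRT1 iKO colon, against 4.97, 4.60, 4.63 and 4.80 in SIRT1 iKO ileum. It read 2.56, 2.42 and 2.17 in Flox colon, against 4.25, 4.74 and 4.85 in Flox ileum, far from overlap in both genotypes. It was 5.10-fold lower in SIRT1 iKO colon (log2 -2.35 ± 0.14 SE, limma adjusted p = 2.96e-07) and 4.69-fold lower in Flox colon (log2 -2.23 ± 0.16, adjusted p = 3.02e-06). Vnn1, at the colon levels given above, read 3.21, 2.29, 3.01 and 2.99 in SIRT1 iKO ileum and 2.24, 3.60 and 2.94 in Flox ileum. It was 22.1-fold lower in SIRT1 iKO colon (log2 -4.46 ± 0.54) and 8.07-fold lower in Flox colon (log2 -3.01 ± 0.63). The difference between these folds, -1.45 with a 95% interval from -3.26 to 0.36, did not pass. Angptl4 was lower in colon by -1.24 ± 0.33 in SIRT1 iKO and -1.59 ± 0.38 in Flox, and Acot4 by -1.42 ± 0.17 and -0.99 ± 0.20.

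**Figure D5:**
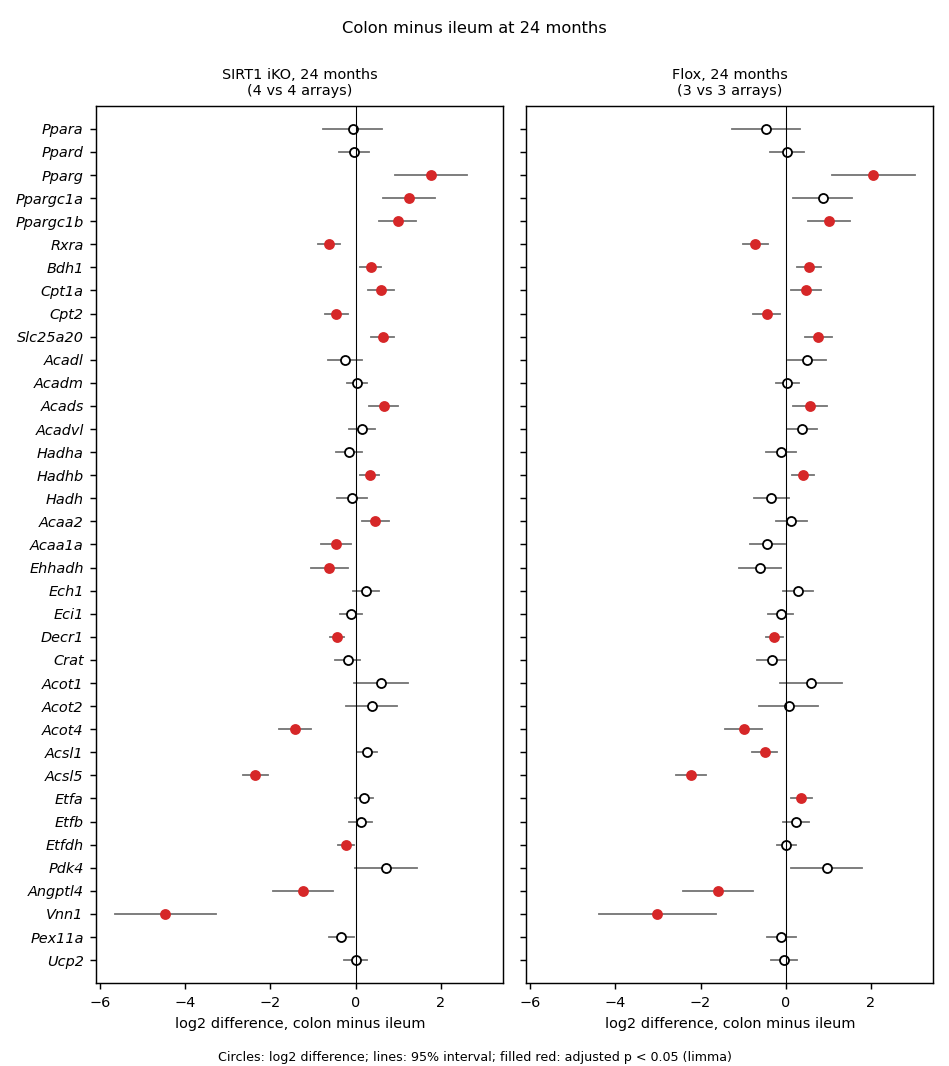
Log2 difference of colon minus ileum at 24 months (horizontal axes) for the 37 members in SIRT1 iKO and in Flox, with circles for the differences, lines for 95% intervals and filled red circles for an adjusted p under 0.05. Pparg and Ppargc1b lie to the right of 0 and Vnn1, Acsl5, Acot4 and Angptl4 to the left in both panels.

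The carnitine shuttle and the enzymes of beta-oxidation were split. The translocase Slc25a20 was higher in colon (0.63 and 0.76 in SIRT1 iKO and Flox), as was Cpt1a, the outer-membrane transferase that starts the shuttle (0.59 and 0.47). Cpt2, its partner at the inner membrane, was lower (-0.45 in each). Acads, the short-chain dehydrogenase that takes butyryl-CoA, was higher (0.65 and 0.57), as were Hadhb, a subunit of the trifunctional protein (0.33 and 0.40), and Bdh1 (0.35 and 0.55). Of 26 alternatives, the Flox call was lost in 13 for Cpt1a, 8 for Cpt2, 7 for Hadhb and 6 for Acads. Decr1 was lower on its brighter probe (-0.43 and -0.27), and the Flox call was lost in 13 of 26 alternatives. Its dimmer probe averaged -3.93 in SIRT1 iKO colon and -3.85 in 24-month SIRT1 iKO ileum. In Flox the dimmer Decr1 probe averaged -3.48 in colon and -3.50 in 24-month ileum. The peroxisomal enzymes Ehhadh and Acaa1a were lower in SIRT1 iKO colon (-0.62 and -0.46), and in Flox their differences of -0.61 and -0.44 did not pass (limma adjusted p = 0.0615 and 0.0953). Their SIRT1 iKO calls were lost in 4 and 10 of 26 alternatives. The thiolase Acaa2 was higher in SIRT1 iKO colon (0.46). Etfdh was lower there on its brighter probe (-0.23), a call lost in 13 of 26 alternatives, while its dimmer probe gave 0.11 (adjusted p = 0.373). In Flox the electron transfer subunit Etfa was higher in colon (0.37), and Acsl1 was lower on its brightest probe (-0.50). The dimmer Acsl1 probes lay closer together, averaging -1.805 and -2.059 in Flox colon, against -1.648 and -1.865 in 24-month Flox ileum. Several of these calls turned on the 2 ileum arrays with colon-level Car1. Without them, Ehhadh (-0.85, limma adjusted p = 0.0123), Acaa1a (-0.61, 0.0226), Hadh (-0.54, 0.0345) and Acadl (0.67, 0.0422) passed in Flox. The Flox calls on Hadhb (adjusted p = 0.0549), Decr1 (0.0819) and Cpt1a (0.0891) and the SIRT1 iKO call on Etfdh (0.0561) were then lost. The difference of these differences did not pass for any member: the smallest p was that of Acsl1, at 0.77 with a 95% interval from 0.39 to 1.14 (limma adjusted p = 0.437). Of the 8 genes called in both genotypes under every alternative tried, 5 were lower in colon (Acot4, Acsl5, Angptl4, Rxra and Vnn1) and 3 higher (Pparg, Ppargc1b and Slc25a20). The 8 epithelial markers summed to 9.85 to 10.2 in colon and 10.5 to 10.6 in 24-month ileum, and the 7 smooth muscle markers to 8.29 to 9.06 and 7.39 to 8.03, whose part in these differences was not tested.

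The other pathway genes were counted by compartment. Of 20 mitochondrial genes, 12 were higher and 2 lower in SIRT1 iKO colon, and 11 higher and 0 lower in Flox colon. Of 27 peroxisomal genes tested, 0 were higher and 8 lower in each genotype. Over all genes, 24.3% were called higher and 19.4% lower in SIRT1 iKO colon, and 19.2% higher and 13.7% lower in Flox colon. Named by smallest p, the propionyl-CoA carboxylase subunit Pccb (1.06 and 1.200) and the synthetase Acsl3 (2.40 and 2.58) were higher in SIRT1 iKO and Flox colon. Cyp4a10, a fatty acid omega-hydroxylase that PPAR-alpha controls in mouse liver, was lower in both (-1.85 and -1.79). The fatty acid binding protein Fabp1 was lower by -3.48 in Flox colon.

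The promoters of the members were searched for the receptor's binding motif in sequences from RefSeq (build GRCm38.p6), from 250 bases before to 50 bases after each gene's start. Windows were found for 31 of 37 members. The direct repeat of AGGTCA with 1 free base between the copies, read on both strands, was in 0 of the 31 and in 13 of all 27025 genes (0.0481%). The same repeat with the fourth base of each copy left free was in 0 of the 31 and in 122 genes (0.451%). A single AGGTCA, which is part of both, was in 6 of the 31 (19.4%), against 4900 of all genes (18.1%). Those 6 were Acadm, Acadvl, Acot4, Cpt1a, Pparg and Rxra. Stretches before the start site are shown for Acot4, Cpt1a, Pparg and Rxra, which were called between colon and ileum in both genotypes, with AGGTCA or its reverse complement in capitals; Pparg and Rxra have a pair of stretches each.
Acot4: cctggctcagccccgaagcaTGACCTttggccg
Cpt1a: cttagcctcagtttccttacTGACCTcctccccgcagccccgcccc
Pparg, first stretch: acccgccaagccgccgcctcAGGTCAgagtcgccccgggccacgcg
Pparg, second stretch: tttatataagggacgcgaggAGGTCAaga
Rxra, first stretch: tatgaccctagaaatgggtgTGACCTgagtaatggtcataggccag
Rxra, second stretch: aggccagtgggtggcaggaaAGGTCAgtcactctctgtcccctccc
They lie on the plus strand of GRCm38.p6: Acot4 at chr12:84038346-84038378, Cpt1a at chr19:3323187-3323232, Pparg at chr6:115361096-115361141 and chr6:115362320-115362348, and Rxra at chr2:27709185-27709230 and chr2:27709224-27709269. The first base of the capitals lies 13 bases before the start site in Acot4, 94 in Cpt1a, 28 and 9 in Pparg, each before a start of its own, and 87 and 48 in Rxra. No binding was measured here.

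Among arrays of 1 group the median pooled SD of the members was 0.22 log2 units, against 0.26 for all genes. Etfdh was the steadiest at 0.10, and Vnn1 (0.70), Acot2 (0.68), Pparg (0.52), Acot1 (0.52), Angptl4 (0.50) and Pdk4 (0.45) varied most. Acot1 and Acot2 are near-identical paralogs, and array probes may not keep them apart.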

How the data were processed

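Total RNA of each sample was hybridised to 1 Agilent one-colour array. The deposited scanner files hold the intensity of each spot, already background-subtracted and detrended within the array by Agilent Feature Extraction 9.5, per the file headers, with no scaling between arrays; the authors' series table held the same intensity values. Later steps by the authors are not given in the sources used here. The number of arrays limits the precision.

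From these, spots flagged as outliers (2724) were left out, spots of a probe were averaged, and each array was centred at its 75th percentile on the log2 scale. The probe with the highest mean stood for its gene. The filter kept genes that were well above background throughout 1 or more groups. limma 3.58.1 (under R 4.3.3) was fitted separately to the 15 ileum, the 7 colon and the 14 aged arrays. P-values were adjusted over all genes (Benjamini and Hochberg) and called under 0.05. The scripts were tested on simulated data. Samples were grouped by title. Members called, or with 1 of the 3 smallest p, are named with their values. The members, lists, tests and alternatives were chosen with earlier results of these data known, and 1 alternative, leaving out 2 ileum arrays, was added after seeing marker levels. The alternatives were background correction, normalization, dim-probe filter, probe choice, array weights, slide, position, replicate number and left-out arrays. Replicate numbers were checked as pairs. Deviations of same-numbered ileum arrays correlated from -0.358 to 0.371, but these arrays differ in genotype or age and cannot share a mouse. Same-numbered aged ileum and colon arrays of the same genotype could share one, and their correlations ran from -0.027 to 0.122. Same-numbered aged arrays of different genotype gave -0.216 to 0.105. These values do not settle whether a number marks the same mouse in both tissues. Other software was the package data.table (1.17.8), pandas 2.3.3 and matplotlib 3.10.9 under Python 3.11.15.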

Additional observations from a re-analysis of the deposited data

Results flagged for a closer look

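In 148 groups of 4 arrays, 1 for each member and group, 9 had 1 array far from the other 3; chance flags about 1 in 20 such groups. Cpt1a was high in SIRT1 iKO colon replicate 2, at 3.37 against 2.91 to 2.99, and so was Hadhb on the same array, at 4.75 against 4.45 to 4.49. Acadvl was low in SIRT1 iKO colon replicate 1, at 5.53 against 5.65 to 5.66. Hadh was high in SIRT1 iKO colon replicate 3, at 4.41 against 4.22 to 4.25, and Etfdh in replicate 4, at 3.82 against 3.69 to 3.71. In young SIRT1 iKO ileum, Acsl1 was high in replicate 2, at 2.65 against 1.89 to 1.92, and Pex11a was low in replicate 4, at 3.16 against 3.80 to 3.83. In young Flox ileum, Crat was high in replicate 3, at 2.45 against 1.86 to 1.93, and Acot1 was low in replicate 1, at -1.03 against 0.11 to 0.30.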

How the results depend on the processing

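Of the recomputed counts of called members, 221 stayed within 1.5 times the reported count and 14 did not. The 221 include counts of 0 that stayed 0 in the genotype and interaction comparisons. Among recomputed results of single named genes, 1384 kept their sign and call, 128 lost the call, 2 gained it and 1 changed sign. With array weights 6 members were called in 24-month ileum by genotype and 10 in Flox ileum by age. With no filter on dim probes 2 were called by age in each genotype. In Flox by age, 2 were called with only the 2 groups in the fit, 2 with slide as a fixed factor and 1 without both arrays with colon-level Car1, an alternative chosen after seeing the data. Between colon and ileum in Flox, 8 were called with only the 2 groups in the fit. Leaving out 1 array gave 2 to 4 calls by age in SIRT1 iKO, 1 to 4 in Flox, 15 to 20 between tissues in SIRT1 iKO, 10 to 18 in Flox, and 0 in each genotype and interaction comparison. Flox by age lost all but Bdh1 without 24-month Flox replicate 1, Acsl5 and Acot4 without young Flox replicate 4, and Acot4 without young Flox replicate 3 or 24-month Flox replicate 4. SIRT1 iKO by age lost Pdk4 and Acot4 without 24-month replicate 3 or young replicate 3 or 4, Pdk4 without 24-month replicate 1, and Acot4 without 24-month replicate 2 or 4. Flox between tissues fell to 10 without 24-month Flox ileum replicate 4. Etfdh in SIRT1 iKO colon minus ileum was 0.005 with quantile normalization (limma adjusted p = 0.97). The cause was not tested. The replicate block gave 0 calls in each genotype and interaction comparison, 5 and 4 by age and 16 and 12 between tissues in SIRT1 iKO and Flox, all within 1.5 times the reported counts. Over all genes, the genotype calls in colon numbered 1 with the replicate block or slide fixed, against 22, 45 with normexp and 48 with a trended, robust prior. Those in 24-month ileum numbered 9 with slide fixed, 16 with the replicate block, 13 with only its groups, 5 with position and 2827 with array weights, against 26. In young ileum they numbered 12 with quantile normalization, 14 with the trended, robust prior, 3 with probe means and 3 with only its groups, against 7. By age in SIRT1 iKO they numbered 664 with no filter, 1087 with probe means, 1061 with only its groups and 1105 without the Car1 arrays, against 1673. By age in Flox they numbered 403 with no filter, 479 with slide fixed, 523 with only its groups and 4859 with weights, against 1330. Between tissues, the higher share of all calls was 55.6% in SIRT1 iKO and 58.3% in Flox, 42.9% and 43.7% with normexp, and 34.7% and 34.3% with no filter. The median over all genes was 0.07 in SIRT1 iKO, -0.07 with normexp and -0.15 with no filter; no named member changed direction under these. By age the higher share was 48.1% in SIRT1 iKO and 37.2% in Flox, and with quantile normalization 59.1% in SIRT1 iKO and 454 of 908 calls in Flox. Signal over background limits Ppard and Acot2 in ileum.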
